A study of Mus musculus with 22 samples.

Results

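Retinoid storage, transport and oxidation genes were followed in mouse lung as 9 genes, Lrat, Stra6, Rbp7, Dhrs3, Adh7, Aldh1a1, Aldh1a2, Aldh1a3 and Cyp26b1, each named through the RefSeq accession of its probe. Every one of the 9 genes had 1 probe, among 20018 genes and 26413 probes that could be named in this way out of 55681 probes on the array. The genes were grouped by their role, with earlier results of these data known. The samples were the right lungs of female C57BL/6 mice, 8 weeks old at the start, which had received Mitsui7, a long and rigid multiwalled carbon nanotube, in 1 intratracheal instillation at 18, 54 or 162 µg per mouse. Control mice received vehicle alone, which was saline (0.9% NaCl) with 10% lavage fluid. Lungs were taken 24 hours later. Arrays of 5 control mice, 6 mice at 18 µg, 5 at 54 µg and 6 at 162 µg were analysed, 22 in all on 7 slides. Lung RNA carried Cy5 and a common reference RNA from 11 mouse cell lines carried Cy3 on every array, which makes every value a ratio of lung to reference on the log2 scale, and dyes were never swapped. The right lung lobes were frozen, and how much of them was extracted is not stated. RNA came from lung tissue of mixed cells, and therefore fewer cells of a type and less RNA per cell cannot be told apart in any value given here.

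Vitamin A reaches tissues as retinol and is held in cells as retinyl esters or turned over in steps. Retinol is reversibly oxidised to retinal, retinal is irreversibly oxidised to retinoic acid, and retinoic acid binds nuclear receptors of the RAR family before cytochromes of the CYP26 family break it down. In the lung, retinyl esters are stored in lipid-containing interstitial cells, and retinoic acid is known for its part in alveolar development and in the upkeep of airway epithelium.

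Markers of lung tissue were present on every array. The surfactant gene Sftpc, the club cell gene Scgb1a1, the type I cell gene Ager, the endothelial gene Pecam1 and the ciliated cell gene Foxj1 were well above background on 22 of 22 arrays. The median Cy5 signal over local background differed between groups. It was 1.91 in controls and 1.40, 1.44 and 1.65 at the rising doses. Slides held 3 or 4 arrays, and slides 3 and 6 held no control. The labels do not say more of the replicates than that they are separate samples of a group.

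A gene was called at a dose when its Benjamini-Hochberg adjusted p in limma, with slide in the model, was at most 0.05, its change was at least 1.5-fold and its Cy5 signal exceeded that of the negative control spots. All 9 genes were expressed by that signal threshold. At 18 µg, 1 of the 9 genes was called, Aldh1a1, which was lower, while 1.05% of all probes and 2.07% of expressed genes were called. At 54 µg, 1 gene was called, Aldh1a3, which was higher, beside 0.178% of all probes and 0.389% of expressed genes. At 162 µg, 2 genes were called, Aldh1a3 higher and Lrat lower, beside 3.6% of all probes and 6.88% of expressed genes. As the dose rose, the log2 fold changes of the 9 genes had medians of -0.37, -0.48 and -0.54, while those of 16433 expressed genes had medians of -0.02, -0.01 and -0.01. At each dose 5 of the 9 genes had an unadjusted p below 0.05, as did 22.3%, 13.9% and 28.9% of expressed genes. The 3 doses were set against the same 5 controls.

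**Figure D1:**
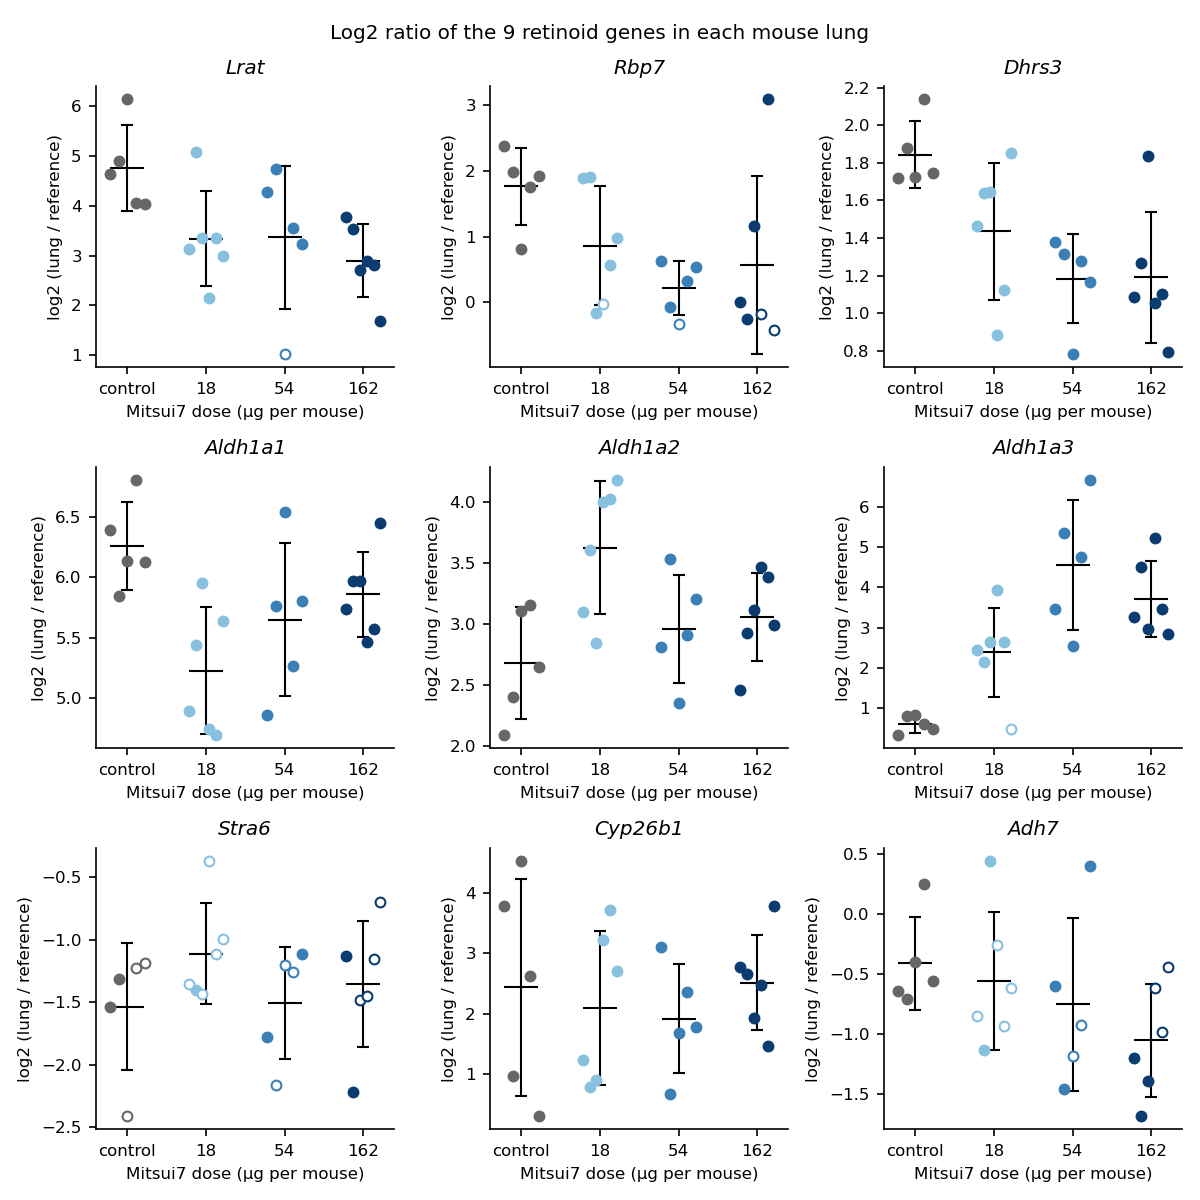
Log2 ratio of lung to reference RNA (vertical axis, own range in each panel) for each of the 9 genes in every mouse, by Mitsui7 dose in µg per mouse (horizontal axis). Points are mice, open where the spot was not well above local background, the wide dash is the group mean and the bar its SD; Aldh1a3 lay between 0.33 and 0.84 in controls and above all of them in every mouse at 54 and 162 µg.

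Storage of vitamin A was represented by Lrat, lecithin retinol acyltransferase, the enzyme that esterifies retinol for storage. The log2 ratio of Lrat was 4.64, 4.88, 6.14, 4.05 and 4.03 in control replicates 1 to 5, a mean of 4.75 ± 0.86 (SD, n = 5). At 162 µg it ranged from 1.68 over a median of 2.85 to 3.78, a mean of 2.90 ± 0.73 (SD, n = 6). All 6 mice at 162 µg therefore lay below all controls, as they did for 4.48% of expressed genes. The slide-adjusted log2 fold change was -1.41 (SE 0.37, limma adjusted p = 0.0285), 2.66-fold lower. At 18 µg Lrat ranged from 2.15 over 3.24 to 5.07, and at 54 µg it was 4.28, 4.73, 1.02, 3.56 and 3.23. The mouse with 5.07 exceeded 4 of the 5 controls, and the spot with 1.02 was not well above background. Neither dose was called, at -0.81 (SE 0.37, adjusted p = 0.299) and -0.84 (SE 0.39, adjusted p = 0.573). Without a slide term the difference at 18 µg was -1.41. The order of the means was control, 54 µg, 18 µg and 162 µg, and none of the differences between doses was called (162 µg against 18 µg, -0.61, 95% interval -1.33 to 0.12).

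The Lrat call rested on a small margin. It was lost in 9 of 22 fits that each left out 1 mouse, namely control replicates 1, 3, 4 and 5 and the 162 µg replicates 1, 2, 3, 5 and 6, where the change ranged over all fits from -1.68 to -1.17 and the adjusted p reached 0.127. Among the 4 slides that held both a control and a 162 µg mouse, Lrat was lower in the exposed mouse on all 4, by log2 differences from -2.61 to -1.11. The call was also lost without a slide term (-1.85, adjusted p = 0.0626), with the replicate number as a block in place of slide (-1.69, adjusted p = 0.0525), with median centring (-1.32, adjusted p = 0.0747) and without normalization (-1.33, adjusted p = 0.361). It was kept under the other 12 alternatives, with adjusted p from 0.0011 to 0.0395. Beside Lrat, 8, 7 and 6 of 10 fibroblast markers, all expressed, were lower at the rising doses. Their medians were -0.20, -0.19 and -0.17, and 1 was called higher and 1 lower, both at 162 µg. The part of these markers in the Lrat values was not tested.

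The 250 bases before the start of Lrat are shown because Lrat and Aldh1a1 were the members called lower. RefSeq (GRCm38.p6) places them at chr3:82903975-82904224 on the minus strand, printed 5′ to 3′ in the direction of transcription.

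Lrat: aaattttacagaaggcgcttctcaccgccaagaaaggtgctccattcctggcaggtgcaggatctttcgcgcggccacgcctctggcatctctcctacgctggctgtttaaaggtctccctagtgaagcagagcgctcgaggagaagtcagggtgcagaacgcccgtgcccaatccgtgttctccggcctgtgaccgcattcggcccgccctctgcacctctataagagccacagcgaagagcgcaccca

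Both strands were searched for the receptor half-sites AGGTCA and AGTTCA, for direct repeats of such half-sites (DR1, DR2 and DR5, named by their spacing), for the AP-1 type site TGACTCA and for TATAAA. None of these letters occurred in the Lrat window, which is printed without capitals for that reason. Windows were found for 8 of the 9 genes. Among 32851 windows of this length, AGGTCA was found in 14.0%, AGTTCA in 11.8%, DR1 in 0.164%, DR2 in 0.174%, DR5 in 0.0883%, TGACTCA in 4.46% and TATAAA in 12.4%. The windows of Rbp7, Dhrs3, Aldh1a2 and Stra6 held no match either. A match describes letters only.

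Uptake and transport were represented by Stra6, the membrane receptor for retinol-binding protein, and Rbp7, a cellular retinol-binding protein found in adipose tissue and endothelium. Stra6 was close to the detection limit, with spots well above background on 2 of 5 control arrays and on 1, 2 and 2 arrays at the rising doses. Its control ratios were -1.54, -1.32, -2.41, -1.23 and -1.19, and those of exposed mice lay between -2.21 and -0.37. The groups overlapped. Its log2 fold changes were 0.12 (SE 0.15, adjusted p = 0.778), -0.13 (SE 0.16, adjusted p = 0.913) and -0.01 (SE 0.15, adjusted p = 0.987).

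Rbp7 had ratios of 2.37, 1.98, 0.81, 1.75 and 1.92 in controls and of 0.62, -0.06, -0.33, 0.32 and 0.54 at 54 µg. These groups did not overlap, a pattern in which all treated mice lay below all controls for 1.8% of expressed genes. The change at 54 µg was -1.32 (SE 0.49) and was not called (adjusted p = 0.401). At 18 µg Rbp7 ranged from -0.16 over 0.77 to 1.90, with 3 of 6 mice below all controls and a change of -0.83 (SE 0.46, adjusted p = 0.419). At 162 µg it ranged from -0.42 over -0.08 to 3.09, with 4 of 6 mice below all controls and 1 above them. The change there was -0.88 (SE 0.46, adjusted p = 0.338), and without that mouse, 162 µg replicate 5, it was -1.41 (adjusted p = 0.0225), which would be called. On 54 µg alone with controls, a fit with fewer arrays, Rbp7 changed by -1.40 (adjusted p = 0.00407), and under the other 15 alternatives the adjusted p was at least 0.225.

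Adipocyte markers were set beside Rbp7, and their sum varied widely within every group. The Cy5 signals of 8 adipocyte markers, all of them expressed, were summed after normalization within and between arrays. This sum ran from 7410 to 128003 in controls. As the dose rose, it ran from 763 to 44240, from 1066 to 92196 and from 649 to 438822. None of the 8 was called at any dose, and their median log2 fold changes were -0.77, -0.05 and 0.04. Their part in the Rbp7 values was not tested.

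The retinol and retinal step was represented by Dhrs3, a retinal reductase that returns retinal to retinol and is itself known to be induced by retinoic acid, and by Adh7, an alcohol dehydrogenase of epithelia that oxidises retinol. Dhrs3 was among the brighter probes and had the narrowest spread of the 9 genes in controls, with ratios of 1.72, 1.88, 1.72, 2.14 and 1.75. At 54 µg its ratios were 1.38, 1.31, 0.78, 1.28 and 1.17, all below all controls, as for 1.8% of expressed genes. At 18 µg it ranged from 0.88 over 1.55 to 1.85 and at 162 µg from 0.79 over 1.10 to 1.83, with 5 of 6 mice below all controls at each of these doses. As the dose rose, its log2 fold changes were -0.32 (SE 0.14, adjusted p = 0.293), -0.48 (SE 0.15, adjusted p = 0.291) and -0.56 (SE 0.14, adjusted p = 0.025).

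Dhrs3 at 162 µg thus passed the adjusted p, as 5.95% of all probes did at any fold, but its change of 1.48-fold stayed under 1.5-fold and was not called. It was lower than the control of the same slide in all 4 mice at 18 µg, all 3 at 54 µg and all 4 at 162 µg that shared a slide with a control, by log2 differences from -0.79 to -0.24. With the deposited log2 table it was -0.66 (adjusted p = 0.0144) and called, as it was without a slide term (-0.65, adjusted p = 0.0325), with slide as a random block (-0.61, adjusted p = 0.0163) and with the replicate block (-0.65, adjusted p = 0.0455). With median centring it was -0.76 (adjusted p = 0.285) and without normalization -0.77 (adjusted p = 0.838). It was also called without 162 µg replicate 3 or 162 µg replicate 4, and the change over all fits without 1 mouse ranged from -0.64 to -0.48.

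Adh7 was dim, well above background on 5 of 5 control arrays but on 2 of 6, 3 of 5 and 3 of 6 arrays at the rising doses. Its ratios were -0.64, -0.71, -0.40, 0.25 and -0.56 in controls and ranged from -1.68 over -1.09 to -0.44 at 162 µg. At 162 µg, 4 of 6 mice lay below all controls, and the change of -0.81 (SE 0.26) was not called (adjusted p = 0.0729). It was called without 18 µg replicate 3, 18 µg replicate 6 or 54 µg replicate 3, mice of groups outside this comparison, with adjusted p down to 0.0292, and in a fit of the 162 µg and control arrays alone (-0.96, adjusted p = 0.0398). The other alternatives had adjusted p from 0.0523 to 0.573. At 18 and 54 µg its changes were -0.37 (adjusted p = 0.546) and -0.47 (adjusted p = 0.701), with overlapping groups.

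**Figure D2:**
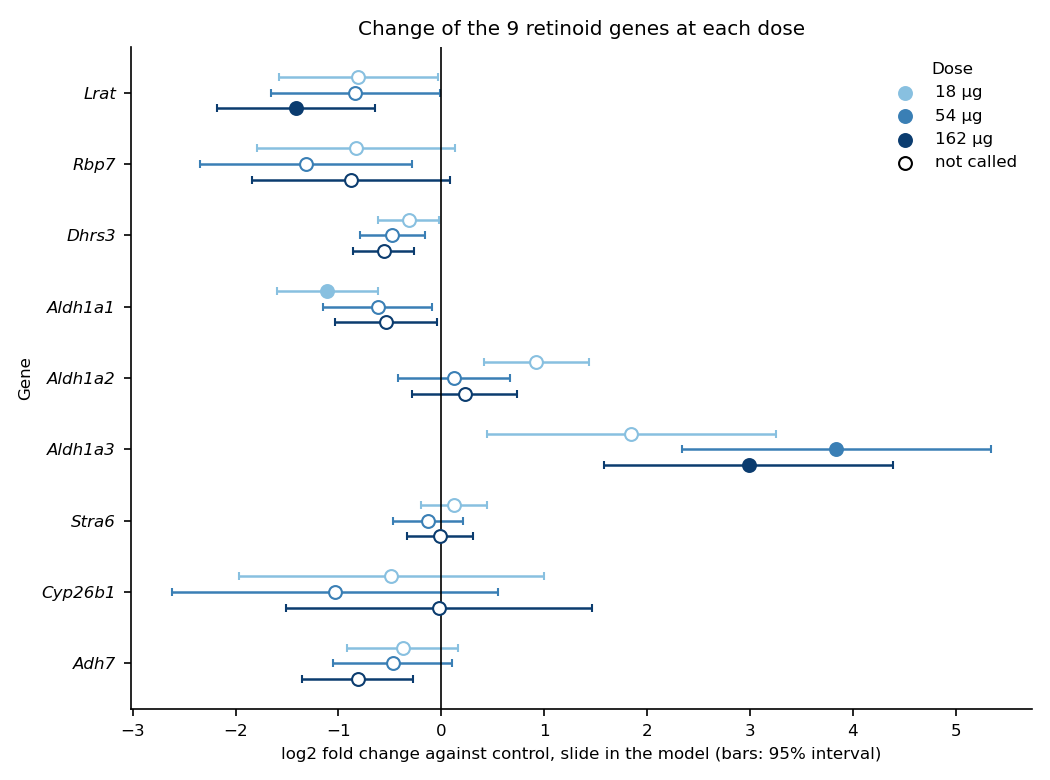
Log2 fold change of the 9 genes against control with slide in the model (horizontal axis) for each dose (shade); bars are 95% intervals and filled points are called. Filled points are Aldh1a1 at 18 µg (-1.11), Lrat at 162 µg (-1.41) and Aldh1a3 at 54 µg (3.84) and 162 µg (2.99).

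Oxidation of retinal to retinoic acid was represented by the retinaldehyde dehydrogenases Aldh1a1, Aldh1a2 and Aldh1a3, and these isoforms differed in direction. Aldh1a1, a cytosolic enzyme abundant in airway epithelium, was among the brighter probes of the 9. Its ratios were 6.39, 5.84, 6.13, 6.81 and 6.13 in controls, a mean of 6.26 ± 0.36 (SD, n = 5). At 18 µg they ranged from 4.69 over 5.17 to 5.96, a mean of 5.23 ± 0.52 (SD, n = 6), with 5 of 6 mice below all controls. The log2 fold change was -1.11 (SE 0.23, adjusted p = 0.031), 2.16-fold lower.

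At the higher doses Aldh1a1 lay closer to the controls. Its ratios were 4.86, 5.76, 6.55, 5.27 and 5.80 at 54 µg and ranged from 5.46 over 5.85 to 6.45 at 162 µg. Its log2 fold changes were -0.62 (SE 0.25, adjusted p = 0.457) at 54 µg and -0.54 (SE 0.23, adjusted p = 0.226) at 162 µg, and neither was called, although a fit of the 54 µg and control arrays alone called the former (-0.92, adjusted p = 0.0467). The difference between 162 µg and 18 µg was 0.57 (SE 0.22, 95% interval 0.10 to 1.03, adjusted p = 0.186) and was not called either, whereas 2.45% of all probes were. The order of the means was control, 162 µg, 54 µg and 18 µg.

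On every slide shared with a control, Aldh1a1 was lower in the exposed mouse, by -1.49, -0.40, -0.85 and -1.43 on the 4 slides at 18 µg and by smaller or similar amounts at the other doses. The call at 18 µg was lost in 6 of 22 fits without 1 mouse, those without control replicates 1, 4 or 5 or without 18 µg replicates 1, 4 or 5, over a range of -1.26 to -0.93 with adjusted p up to 0.129. It was also lost without a slide term (-1.03, adjusted p = 0.0699), in a fit of the 18 µg and control arrays alone (-1.05, adjusted p = 0.0675), with the deposited log2 table (-1.10, adjusted p = 0.0626), without normalization (-1.57, adjusted p = 0.146) and with each array's signal over background as a covariate, an alternative chosen after seeing the data (-1.17, adjusted p = 0.0665). Aldh1a7, a close relative of Aldh1a1 with a probe of its own, had log2 fold changes of -0.06 (SE 0.16, adjusted p = 0.917), -0.33 (SE 0.17, adjusted p = 0.644) and -0.53 (SE 0.16, adjusted p = 0.0645) at the rising doses, and hybridisation of its RNA to the Aldh1a1 probe cannot be seen in these values.

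Most club and ciliated cell markers had negative log2 fold changes in the same groups. Of 7 club cell markers, all expressed, 7 were lower at 18 µg, 6 at 54 µg and 6 at 162 µg, with medians of -0.56, -0.55 and -0.47 and 1, 1 and 2 of them called. Their summed normalized Cy5 signal ran from 1147638 to 1732008 in controls. As the dose rose, it ran from 977421 to 2006991, from 843976 to 2058839 and from 816885 to 2352754. Of 10 ciliated cell markers, all expressed, 10 were lower at each dose, with medians of -0.81, -0.46 and -0.89 and 2 of them called, both at 162 µg. The sum over the ciliated markers ran from 40740 to 60997 in controls and, as the dose rose, from 16697 to 49231, from 16118 to 44907 and from 8241 to 33185. Squamous or basal epithelium of esophagus and trachea had 6 expressed markers. At the rising doses 3, 5 and 1 of them were higher, with medians of -0.14, 0.08 and -0.28, and none was called. The part of any of these markers in the Aldh1a1 values was not tested.

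RefSeq lists more than 1 start for Aldh1a1 (GRCm38.p6, plus strand), and the windows before the farthest upstream and the downstream start, chr19:20492333-20492582 and chr19:20601718-20601967, are shown because the probe's transcript could not be assigned to either here. Capitals mark a match to TGACTCA.

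Aldh1a1 upstream start: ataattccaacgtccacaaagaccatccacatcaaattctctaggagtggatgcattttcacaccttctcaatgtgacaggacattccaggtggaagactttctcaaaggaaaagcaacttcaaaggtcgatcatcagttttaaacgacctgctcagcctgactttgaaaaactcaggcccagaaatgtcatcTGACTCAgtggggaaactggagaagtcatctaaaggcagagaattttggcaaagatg

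Aldh1a1 downstream start: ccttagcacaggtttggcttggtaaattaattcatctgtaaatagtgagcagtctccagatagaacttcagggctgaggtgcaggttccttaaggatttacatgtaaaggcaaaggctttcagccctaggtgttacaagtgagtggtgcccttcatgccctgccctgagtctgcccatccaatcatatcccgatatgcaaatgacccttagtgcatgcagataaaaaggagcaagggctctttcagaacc

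The match lies 57 to 51 bases before the upstream start, lies on the strand printed and belongs to a motif found in 4.46% of windows, and the downstream window held none of the motifs searched. The Adh7 window held TGACTCA on the other strand, as well as AGTTCA and also TATAAA, and Cyp26b1 held TATAAA.

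Aldh1a2, the retinaldehyde dehydrogenase of mesothelium and mesenchyme, lay higher at the lowest dose without passing the test. Its ratios were 2.08, 2.40, 3.11, 3.16 and 2.65 in controls and ranged from 2.84 over 3.80 to 4.18 at 18 µg, where 4 of 6 mice lay above all controls. Its log2 fold change was 0.92 at this dose (SE 0.24, adjusted p = 0.0654), beside 0.12 at 54 µg (SE 0.26, adjusted p = 0.962) and 0.23 at 162 µg (SE 0.24, adjusted p = 0.729). The difference of 162 µg from 18 µg was -0.70 (SE 0.23, adjusted p = 0.103). At 18 µg it was called when p was adjusted over expressed probes alone (adjusted p = 0.0466), with slide as a random block (0.94, adjusted p = 0.042), with the replicate number as a block (0.90, adjusted p = 0.0377) and without control replicate 4, 18 µg replicate 3 or 54 µg replicate 3. With median centring it was 0.50 (adjusted p = 0.513) and without normalization 0.34 (adjusted p = 0.732).

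Mesothelial markers were set beside Aldh1a2. At 18 µg, 7 of 8 such markers, all expressed, were higher, with a median of 0.56, against 4 of 8 with medians of 0.02 at 54 µg and 0.13 at 162 µg. None was called at these doses. Their summed normalized Cy5 signal ran from 17377 to 29698 in controls. As the dose rose, it ran from 24474 to 46261, from 20649 to 35594 and from 29559 to 41215. The part of these markers in the Aldh1a2 values was not tested.

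Aldh1a3, the isoform known from the olfactory and eye epithelium of embryos, had the log2 fold change of largest size among the 9 genes at every dose. Its ratios in controls were 0.33, 0.81, 0.84, 0.61 and 0.48, a mean of 0.62 ± 0.22 (SD, n = 5). At 18 µg they ranged from 0.48 over 2.55 to 3.92, at 54 µg they were 3.46, 5.36, 2.54, 4.76 and 6.67, and at 162 µg they ranged from 2.84 over 3.36 to 5.23. Every mouse at 54 and 162 µg lay above all controls, as for 1.51% and 3.72% of expressed genes, and 5 of 6 did at 18 µg. The remaining 18 µg mouse, replicate 6, lay at 0.48 with a spot not well above background.

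Aldh1a3 rose 14.3-fold at 54 µg, by 3.84 on the log2 scale (SE 0.71, adjusted p = 0.0359), and 7.93-fold at 162 µg, by 2.99 (SE 0.67, adjusted p = 0.0129). At 18 µg it stood at 1.85 (SE 0.67, adjusted p = 0.176) and was not called. The means stood in the order control, 18 µg, 162 µg and 54 µg. No difference between doses was called. It was 1.99 (95% interval 0.59 to 3.40, adjusted p = 0.333) for 54 µg against 18 µg, 1.14 (95% interval -0.17 to 2.46, adjusted p = 0.401) for 162 µg against 18 µg and -0.85 (95% interval -2.26 to 0.55, adjusted p = 0.853) for 162 µg against 54 µg. The Cy5 signal of the probe was 104.5 to 148.5 in controls, well above background on all 5 of those arrays, and reached 4729 at 54 µg.

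On all shared slides the exposed mouse had the higher Aldh1a3 ratio, by 1.34 to 2.16 on the 4 slides at 18 µg, 3.14 to 4.51 on the 3 at 54 µg and 2.36 to 3.66 on the 4 at 162 µg. At 162 µg the call was lost without control replicate 3 (adjusted p = 0.0548) and over all fits the change ranged from 2.72 to 3.24. At 54 µg it was lost in 12 of 22 fits, those without control replicates 1, 3, 4 or 5, without 18 µg replicates 3 or 5, without 54 µg replicates 1, 2 or 4 and without 162 µg replicates 1, 2 or 5, although the change stayed between 3.14 and 4.52 and the adjusted p reached 0.16. At 18 µg it was called without 54 µg replicate 5, with the Cy5 channel alone (2.01, adjusted p = 0.031), with the replicate block (2.05, adjusted p = 0.0349) and in a fit of the 18 µg and control arrays alone (1.92, adjusted p = 0.00595).

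The Aldh1a3 call at 54 µg was also lost with a normexp background (3.37, adjusted p = 0.066), median centring (3.47, adjusted p = 0.196), no normalization (3.63, adjusted p = 0.725), the deposited log2 table (3.43, adjusted p = 0.145) and signal over background as a covariate (3.77, adjusted p = 0.0536). At 162 µg it was lost without normalization (2.56, adjusted p = 0.251) and kept under the other 15 alternatives.

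Neutrophil markers, followed because leukocytes enter an instilled lung, had medians of 0.02, 0.23 and 0.50 at the rising doses, with 5, 7 and 8 of 10 higher and 1, 0 and 1 called. Their summed normalized Cy5 signal ran from 83503 to 279815 in controls. As the dose rose, it ran from 87403 to 184592, from 144554 to 246242 and from 166029 to 366820. All 10 were expressed, and their part in the Aldh1a3 values was not tested.

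**Figure D3:**
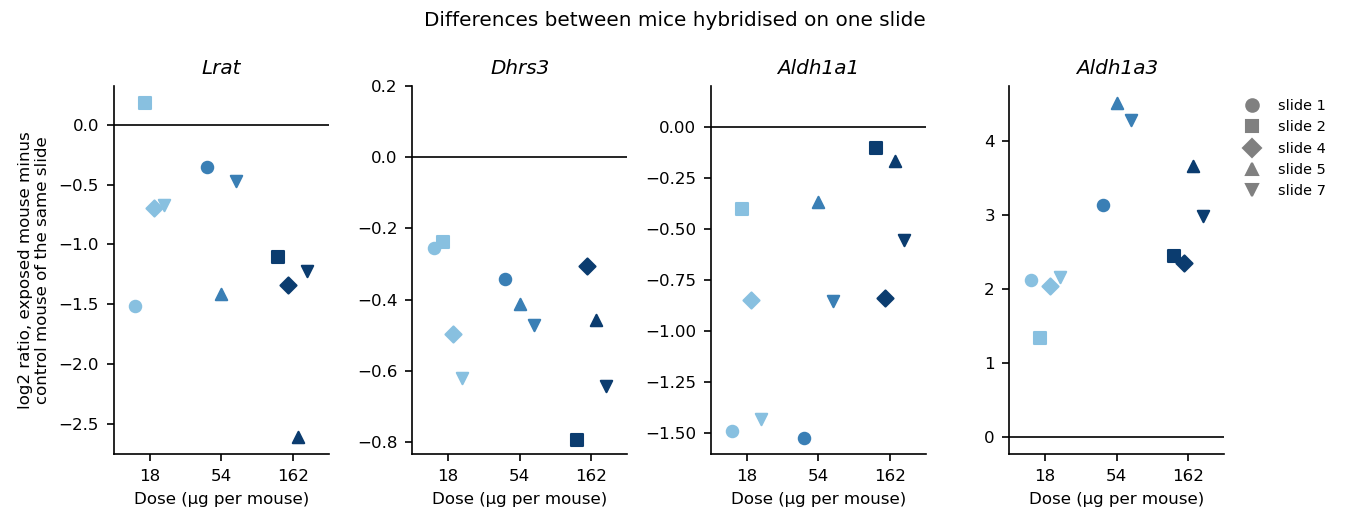
Log2 ratio of an exposed mouse minus that of the control mouse on the same slide (vertical axis, own range in each panel) for Lrat, Dhrs3, Aldh1a1 and Aldh1a3, by dose in µg per mouse (horizontal axis), with slides as symbols. All points lie below 0 for Dhrs3 and Aldh1a1 and above 0 for Aldh1a3, and for Lrat all but 1 point, at 18 µg on slide 2 (0.18), lie below 0.

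Breakdown of retinoic acid was represented by Cyp26b1, a cytochrome that hydroxylates it. Its ratios spread widely within groups, at 3.78, 0.97, 4.53, 2.62 and 0.30 in controls, so that the SD of 1.80 was the largest of the 9 genes. The groups overlapped fully, since no exposed mouse lay above or below all controls. Its log2 fold changes were -0.49 (95% interval -1.97 to 1.00), -1.04 (95% interval -2.62 to 0.55) and -0.02 (95% interval -1.51 to 1.46) as the dose rose. The values leave changes of any size within these intervals possible, in either direction.

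Between doses, 27 differences were tested for the 9 genes and none was called. At an unadjusted p below 0.05 there were 2 of 9 for 162 µg against 18 µg, 2 of 9 for 54 µg against 18 µg and 0 of 9 for 162 µg against 54 µg. The share of expressed genes at this unadjusted threshold was not taken between doses, so these counts have no background. At the stricter threshold for a call, 2.45%, 0.0144% and 0% of all probes passed in these comparisons.

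The rest of the pathway was described from 7 lists of 71 other retinoid genes, of which 70 were on the array and 58 were expressed. At 18 µg, 2 of the 58 were called, both lower, beside 2.07% of expressed genes. At 54 µg, 1 was called, higher, beside 0.389%. At 162 µg, 3 were called higher and 6 lower, beside 6.88%. The median log2 fold change of the 58 genes was -0.01, -0.07 and -0.03 at the rising doses, near that of all expressed genes.

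Among the 10 receptors and partners only Rarb was called. Rarb, retinoic acid receptor β and itself a well-known target of retinoic acid, had ratios of 1.55 to 2.09 in controls and of 0.40 to 1.24, 0.30 to 1.36 and 0.15 to 1.43 at the rising doses. Every exposed mouse at every dose lay below all controls, as happened for 1.98%, 1.8% and 4.48% of expressed genes at 18, 54 and 162 µg. It fell by a log2 fold change of -0.88 (SE 0.18, adjusted p = 0.0258) at 18 µg and -0.97 (SE 0.18, adjusted p = 0.00404) at 162 µg, and -0.84 (SE 0.19, adjusted p = 0.0963) at 54 µg was not called. A second, dimmer Rarb probe gave -0.41, -0.32 and -0.32 and was not called at any dose. The call at 18 µg was lost without control replicates 1 or 5 or 18 µg replicates 1 or 5, where the adjusted p reached 0.106, and that at 162 µg was kept in all 22 such fits. Of 16 processing alternatives, 6 lost the Rarb call at 18 µg and 1 that at 162 µg. Among the 6 were the deposited log2 table (adjusted p = 0.0786) and a fit of the 18 µg and control arrays alone (adjusted p = 0.0716).

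Among the genes of retinoic acid breakdown, of which 2 of 5 were expressed, Cyp2s1, a cytochrome of epithelia that can oxidise retinoic acid, was called at 18 µg (-1.15, SE 0.20, adjusted p = 0.0144) and 162 µg (-1.45, SE 0.20, adjusted p = 0.000475). Its ratios were 3.35 to 4.03 in controls and 1.27 to 3.02 at 162 µg. All mice at 162 µg thus lay below all controls, as for 4.48% of expressed genes. At 54 µg all 5 mice also lay below all controls, as for 1.8% of expressed genes, at -0.80 (SE 0.21, adjusted p = 0.164). The call at 18 µg was lost without control replicates 1 or 5 or 18 µg replicate 5, over a range of -1.32 to -1.03. Of 16 processing alternatives, 3 lost the Cyp2s1 call at 18 µg and 1 that at 162 µg.

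Of 19 expressed genes of retinol and retinal interconversion, Akr1b8 rose at 162 µg (1.29, SE 0.24, adjusted p = 0.00458) and Akr1b10 fell (-0.73, SE 0.13, adjusted p = 0.00319). Both are aldo-keto reductases that take aldehydes other than retinal as well. The Akr1b8 call was lost under 2 of 16 processing alternatives and the Akr1b10 call under 3.

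Of 4 expressed genes of ester storage and hydrolysis, Pnpla2, a lipase of triglycerides and retinyl esters, rose at 162 µg by 0.94 (SE 0.21, adjusted p = 0.0116). Its ratios were 1.17 to 1.79 in controls and 1.77 to 3.15 at 162 µg. It was higher at 162 µg than at 18 µg too (1.22, SE 0.19, adjusted p = 0.00172). The Pnpla2 call against control was lost without control replicate 5 and under 2 of 16 processing alternatives. None of 4 other retinal-oxidising genes, Aldh1a7, Aldh8a1, Aox1 and Aox3, was called at any dose.

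Of 13 expressed genes known to be induced by retinoic acid, Tgm2, tissue transglutaminase, rose at 54 µg (0.81, SE 0.14, adjusted p = 0.0269) and 162 µg (0.89, SE 0.13, adjusted p = 0.000859). With this probe, all exposed mice at these doses lay above all controls for Tgm2, as for 1.51% and 3.72% of expressed genes. A second, dimmer Tgm2 probe gave 0.59 at 54 µg (adjusted p = 0.186) and was not called there. At 162 µg it gave 0.83 (adjusted p = 0.00368) and was called, with 5 of 6 mice above all controls. The orphan receptor Nr2f1 fell at 162 µg (-0.71, SE 0.11, adjusted p = 0.00129), a call lost under 2 of 16 processing alternatives. The Tgm2 call at 54 µg was lost without control replicates 3, 4 or 5, without 54 µg replicates 2 or 4 or without 162 µg replicate 1, with the change between 0.69 and 0.91. Of 16 processing alternatives, 3 lost the Tgm2 call at 54 µg and 2 that at 162 µg.

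**Figure D4:**
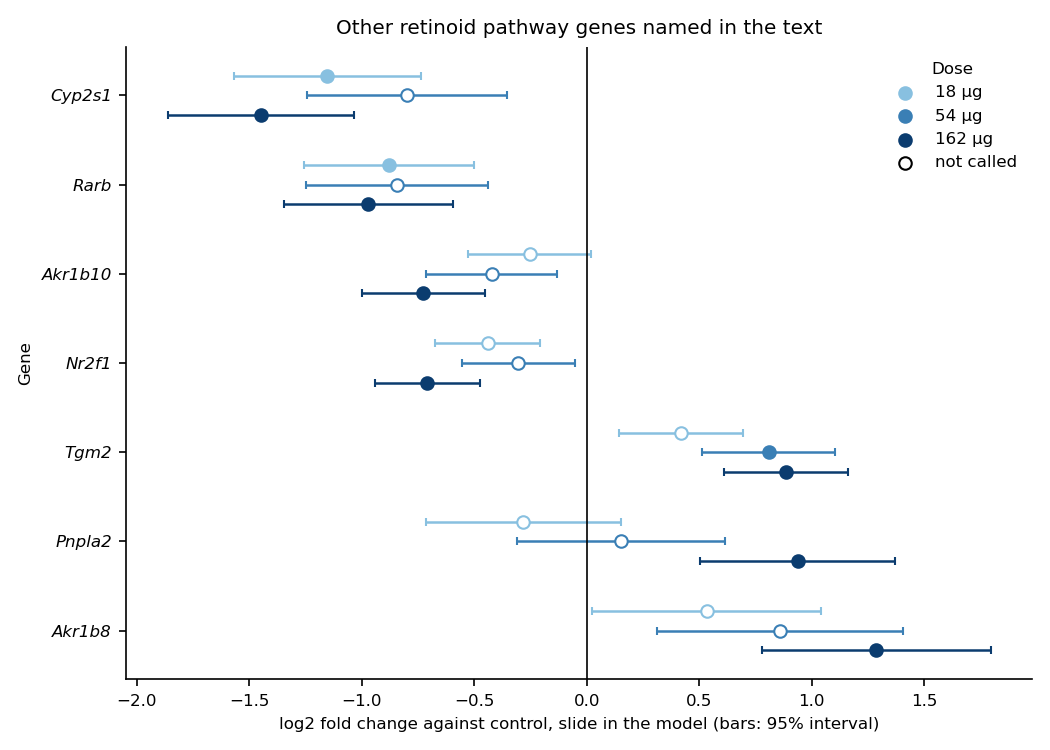
Log2 fold change against control with slide in the model (horizontal axis) of the other retinoid genes named in the text as called, by dose (shade); bars are 95% intervals and filled points are called. Cyp2s1 and Rarb are filled at 18 and 162 µg, Tgm2 at 54 and 162 µg and the rest at 162 µg alone.

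The genes whose ratios ran most like a called member were taken over the 22 arrays from 16112 expressed genes. These correlations are a description, since arrays share groups, slides and the reference. For Aldh1a3 they were Selp, P-selectin of platelets and endothelium (Pearson r = 0.93), the chemokine Ccl2 (r = 0.917) and the cholesterol hydroxylase Ch25h (r = 0.908). Ccl2 changed by 2.67 at 54 µg (adjusted p = 0.0474) and 2.21 at 162 µg (adjusted p = 0.0122). For Aldh1a1 they included Por, the electron donor of cytochromes P450 (r = 0.808), and Olfr870 (r = 0.8). Por changed by -1.09 at 18 µg (adjusted p = 0.0105). For Lrat they were Ldlrad4 (r = 0.909), Zfp583 (r = 0.905) and Zfp454 (r = 0.891), and of these Ldlrad4 changed by -0.59 at 162 µg (adjusted p = 0.00998).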

How the data were processed

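Total RNA of right lung tissue from 22 mice was measured on 2-colour Agilent arrays. The intensity values deposited by the authors are, for every spot and both channels, median pixel signals with no background subtracted, from Feature Extraction 10.7.3.1 as the headers state. A table of log2 ratios deposited by the authors, with a normalization not given in the sources used here, served as an alternative. With no channel swapped, a dye effect of a probe is shared by all groups. The protocols give 6 mice per group, and arrays of 5, 6, 5 and 6 mice were analysed.

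For each spot not marked as an outlier the log2 of the Cy5 over the Cy3 median signal was taken, then normalized by loess (span 0.3) array by array, and replicate spots were reduced to their median, which left 55681 probes. RefSeq accessions gave a gene to 26413 probes and none to 29268. A gene with several probes was represented by the brightest. Summed Cy5 signals of marker genes were taken after the same loess step and a quantile normalization of mean log intensities across arrays. The limma 3.58.1 model (R 4.3.3) held dose and slide as fixed effects, with 12 residual degrees of freedom, and Benjamini-Hochberg adjustment ran over all probes. A call needed an adjusted p no higher than 0.05, a change of 1.5-fold or more, and a Cy5 signal above a threshold in 80% or more of the arrays in 1 of the groups. That threshold was the mean of 308 negative control spots, trimmed by 5%, plus 3 trimmed SDs. The methods of the study use a permutation test of a shrinkage statistic in the same model, and limma was used here in its place. In simulated data of 55681 probes, with independent noise drawn from the fitted model, 200 expressed probes taken at random were shifted by 1.5 log2 units. Of these limma called 99% at 18 µg, 100% at 54 µg and 99% at 162 µg, with 6, 8 and 12 false calls. The median SE over all probes was 0.12 to 0.13, whereas Lrat, Rbp7, Aldh1a3 and Cyp26b1 had SEs of 0.37 to 0.75. These shares therefore say nothing of the power for such noisier genes.

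The 9 genes, the lists and the tests were chosen with earlier results of these data known. The text names the 9 genes, every other retinoid gene called at 1 or more doses, and the 3 genes most like each called member, except some that are not reported here. Alternatives to these choices were a normexp background (offset 50), other normalizations (median centring, none, quantiles across arrays), Cy5 values alone scaled to the 75th percentile, the deposited log2 ratios, other ways to treat slide, filters, thresholds, outlier spots and multiple probes, and fits that left out a mouse. The number of arrays limits the precision.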

Additional observations from a re-analysis of the deposited data

Results flagged for a closer look

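Of 36 groups of values, 4 for each of the 9 genes, 1 had a mouse set apart by Dixon's ratio, while chance sets apart about 5 percent of groups. In control replicate 3 the log2 ratio of Stra6 was -2.41 against -1.54 in the nearest control, a gap of 0.715 of the whole range of the 5 controls, past the limit of 0.71. The Stra6 spot of that array was not well above background. None of the 27 differences between doses of the 9 genes was called.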

How the results depend on the processing

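Across 16 alternatives other than leaving out mice, the 9 genes at 3 doses gave 432 values, of which 384 kept their direction and their side of the threshold, 15 lost a call, 14 gained one and 19 changed sign. The changes of sign were in values near 0 of Stra6, Aldh1a2 and Cyp26b1, none of them called. The other retinoid genes gave 192 values for their calls, of which 152 kept the call and 40 lost it, and none changed sign. The causes were not tested.

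Counts below are of the 9 genes, of all probes and of the 58 other retinoid genes, and are given where they moved by over 1.5 times from 1, 582 and 2 at 18 µg, from 1, 99 and 1 at 54 µg and from 2, 2002 and 9 at 162 µg. With median centring, all probes and other retinoid genes came to 181 and 0 at 18 µg, the 3 counts to 0, 3 and 0 at 54 µg and to 1, 552 and 3 at 162 µg, and Aldh1a2 at 162 µg to -0.049. Without normalization they were 0, 2 and 0, then 0, 0 and 0, then 0, 8 and 0, with Stra6 at -0.13 and 0.041 at the lower doses and Aldh1a2 at -0.064 at 162 µg. Quantile normalization left 246 probes at 18 µg and called 1 of the 9 genes between 162 and 18 µg. The Cy5 channel alone called 2 of the 9 at 18 µg and 153 probes and 2 other genes at 54 µg, with Stra6 at 0.059 at 162 µg. With normexp 0 of the 9 were called at 54 µg, and Stra6 was at 0.072 at 162 µg. The deposited table gave 0, 94 and 1 at 18 µg and 0, 7 and 0 at 54 µg, with Aldh1a2 at -0.15 at 54 µg and Stra6 at 0.14 and Cyp26b1 at 0.11 at 162 µg.

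Without a slide term 0 of the 9 and 320 probes were called at 18 µg, Lrat lost its call and Dhrs3 gained one at 162 µg, Stra6 was at 0.033 and 0.18 at the higher doses and Cyp26b1 at 0.076 at 162 µg. With slide as a random block 2 of the 9 were called at 18 µg and 169 probes and 2 other genes at 54 µg, with Stra6 at 0.10 and Cyp26b1 at 0.036 at 162 µg. A fit of the groups compared alone called 154 probes and 0 other genes at 18 µg, where Aldh1a1 lost its call and Aldh1a3 gained one, 3, 919 and 5 at 54 µg and 1 of the 9 between 162 and 18 µg, with Stra6 at -0.0092 at 18 µg and Stra6 at 0.042 and Cyp26b1 at 0.10 at 162 µg. Adjusting over expressed probes alone called 2 of the 9 at 18 µg, and without a fold threshold 3290 probes passed at 162 µg. With signal over background as a covariate, chosen after seeing the data, 0, 159 and 1 were called at 18 µg and 0 of the 9 at 54 µg.

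The labels do not say that a replicate number pairs mice, and the numbers were not taken as pairs. The correlation of the deviations of same-numbered mice from their group means ran from -0.17 to 0.41. It exceeded 0.1 in 9 of 15 pairs, and 5 of these 9 shared a slide. Pairs on different slides reached 0.243. Mice of different numbers were not compared, so this check cannot settle whether the numbers pair mice. With the replicate block in place of slide, 3 of the 9 genes were called at 18 µg (Aldh1a1, Aldh1a2 at 0.90 and Aldh1a3 at 2.05), 226 probes and 2 other genes at 54 µg, and Lrat at 162 µg was not called (-1.69, adjusted p = 0.0525), with Stra6 at 0.033 at 54 µg and 0.11 at 162 µg. Each slide was scanned once, so a scan date could not be fitted apart from the slide.

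With each mouse left out in turn, between 0 and 2 of the 9 genes were called at either lower dose, between 0 and 3 at 162 µg, and up to 1 (from 0) for 162 against 18 µg. All probes called ranged from 31 (without control replicate 1) to 1013, from 7 (without 54 µg replicate 2) to 280 and from 1329 to 2294, and the other retinoid genes from 0 to 3, 0 to 3 and 7 to 10. Values that changed sign were those of Cyp26b1 at 18 µg (-1.24 to 0.048) and 162 µg (-0.78 to 0.61), Stra6 at 162 µg (-0.091 to 0.083) and Aldh1a2 at 54 µg (-0.042 to 0.30).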
